A study of Ovis aries with 6 samples.

Results

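Granins are acidic proteins stored in the dense-core granules of hormone-secreting cells, and prohormone processing is the series of cuts and trims that turns a precursor into an active peptide. The 10 genes listed here are the granins CHGA, CHGB, SCG2, SCG3 and VGF, the convertase chaperone SCG5, the convertases PCSK1 and PCSK2, the convertase inhibitor PCSK1N and the carboxypeptidase CPE. They were picked by gene symbol from the 33609 genes of the count table, and 9 of the 10 have a row there. PCSK2 was not analysed here. All 9 passed the filter on low counts, as did 18019 genes in all. The family was put together after CHGA had been seen to be lower in thyroidectomised than in intact ewes in long days, so the values of that comparison are given below as a description and with no test.

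The counts come from polyA RNA of ewe choroid plexus, the tissue in the brain ventricles whose epithelium secretes cerebrospinal fluid. Intact control ewes were kept in short days (Short) or in long days (Long), and thyroidectomised ewes were kept in long days (THX). By the study's design text there were 8 Short, 8 Long and 7 THX ewes, although it states a total of 24. RNA was taken from each ewe and mixed in equal amounts into 2 pools per group, each from 3 to 4 ewes, so all errors below are between pools and not between ewes. The labels do not state the breed, age or reproductive state of the ewes.

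In endocrine cells and neurons the granins drive the packing of hormones into granules and are themselves cut into peptides. PCSK1 (PC1/3) and PCSK2 (PC2) cut precursors after pairs of basic residues, SCG5 (7B2) is needed for PC2 to mature, PCSK1N (proSAAS) restrains PC1/3, and CPE removes the basic residues left at the cut end. Most of these genes are highly expressed in the anterior pituitary, a gland that lies under the brain near the floor of the third ventricle, so RNA of pituitary cells in a sample carries them too.

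Each pool held from 48282883 to 82100653 counts. Levels are given as CPM, which are counts divided by library totals that TMM factors scale to a common size, and as the mean ± SD of the 2 pools of a group. The thyroid hormone targets HR and KLF9 followed the labels. HR was at 25.6 and 25.3 CPM in Short, 23.7 and 23.4 CPM in Long and 3.36 and 2.76 CPM in THX pools. A list of thyroid hormone response genes had 4 tested genes. Of these, 2 were lower in THX relative to Long and 2 relative to Short pools at an adjusted p below 0.05 by edgeR. Of all tested genes 0.283% and 0.916% passed there in either direction. In each of these comparisons 1 of the 4 genes had a log2 difference above 0. The tissue marker TTR lay between 86397 and 140707 CPM in all 6 pools. In bulk tissue, fewer cells of a type and less RNA per cell cannot be told apart.

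RNA of pituitary hormone genes was present in every pool and differed widely between them. Prolactin (PRL) stood at 133 and 50.6 CPM in Short pools 1 and 2, 19.3 and 50.1 CPM in Long pools 1 and 2, and 588 and 201 CPM in THX pools 1 and 2. Growth hormone (GH) ran from 1.14 CPM in Long pool 1 to 42.4 CPM in THX pool 1, and POMC, the precursor of corticotropin, from 2.43 CPM in Long pool 1 to 30.7 CPM in THX pool 1. CGA, the subunit shared by the glycoprotein hormones, was high in Long pool 2 (44.1 CPM), THX pool 1 (34.7 CPM) and Short pool 1 (27.4 CPM) and between 2.02 and 8.27 CPM in the others. In the Short and in the THX group, pool 1 held more of each of these RNAs than pool 2. In the Long group PRL, GH and CGA were higher in pool 2. POMC was nearly the same in Long pools 1 and 2, at 2.43 and 2.47 CPM. The mean log2 CPM of 7 hormone genes (POMC, PRL, GH, CGA, TSHB, LHB and FSHB), called the pituitary level below, was 5.17 in THX pool 1, 3.66 in Short pool 1, 3.53 in Long pool 2, 3.15 in THX pool 2, 2.22 in Short pool 2 and 1.33 in Long pool 1. None of the 19 tested genes of the pituitary list passed in any comparison, where at most 0.916% of all tested genes did. In THX relative to Long pools 14 of the 19 had a log2 difference above 0.

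Chromogranin A (CHGA), the granin that is cut into vasostatin, pancreastatin and catestatin, was lower in the THX pools. It stood at 5955 and 6413 CPM in the Short pools, 6745 and 6955 CPM in the Long pools and 3622 and 3568 CPM in the THX pools. Both THX pools lay far below the 4 control pools, and the pools within each group lay close together. The group means were 6184 ± 323, 6850 ± 148 and 3595 ± 37.9 CPM (SD, n = 2). CHGA was 1.91-fold lower in THX than in Long pools (log2 difference −0.93, SE 0.0763), the comparison in which it was first noticed.

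Relative to Short pools, which that observation did not use, CHGA fell 1.72-fold in THX pools (log2 difference −0.78, SE 0.0762, 95% interval −0.96 to −0.60, adjusted p = 0.0167 by the quasi-likelihood test of edgeR, adjusted over all tested genes). The THX pools are the same in both comparisons, so this test is not independent of the observation that led to the choice of the family. Leaving out Short pool 1 or 2 raised the adjusted p to 0.0843 or 0.07, leaving out Long pool 1 or 2 raised it to 0.082 or 0.0875, and a fit of the 4 pools compared gave 0.0933, while the log2 difference lay between −0.88 and −0.73 over all alternatives. Between day lengths CHGA differed by 0.15 on the log2 scale (Long minus Short, 95% interval −0.03 to 0.33, adjusted p = 0.409 by edgeR). The Long pools lay above the Short pools, but the difference did not pass.

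CHGA did not put the 6 pools in the order of the pituitary level. Within the Long and THX groups the pool of higher pituitary level had the higher CHGA (6955 against 6745 CPM and 3622 against 3568 CPM). In the Short group that pool had the lower CHGA (5955 against 6413 CPM). Long pool 1 had the lowest pituitary level and 378101 CHGA counts against 1980 counts of the 7 hormone genes together. THX pool 1 had the highest pituitary level, with 42156 hormone counts, and 205753 CHGA counts. Long pool 1 and THX pool 1 also differ in thyroidectomy, and the part of pituitary RNA in the CHGA level was not tested. Per 100 counts of CGA the pools held from 10423 (THX pool 1) to 334603 (Long pool 1) counts of CHGA.

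**Figure D1:**
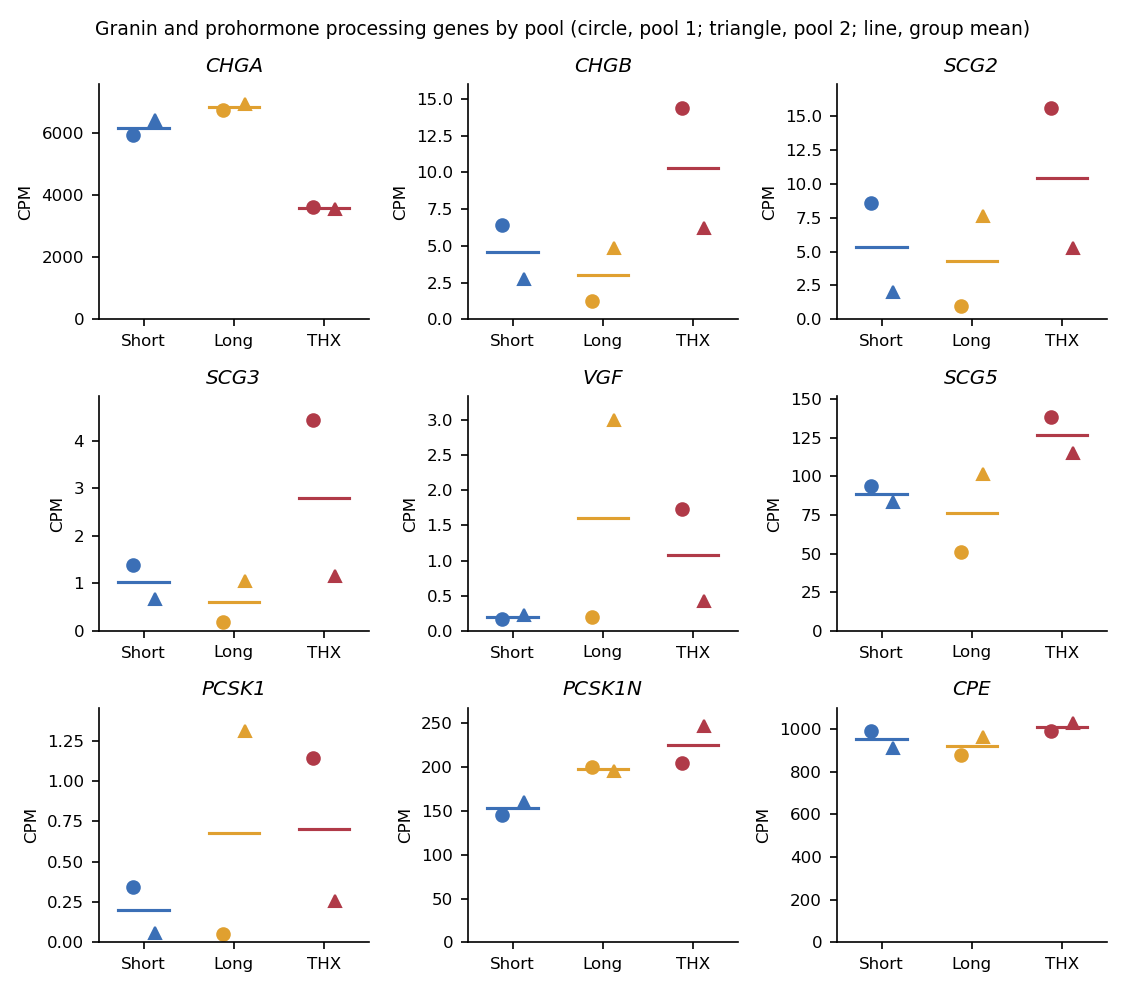
CPM (vertical axes, starting at 0) of the 9 measured genes in the Short, Long and THX pools, with pool 1 as a circle, pool 2 as a triangle and the group mean as a line. CHGA is at 3622 and 3568 CPM in the THX pools and at 5955 or more in the other 4, whereas CHGB, SCG2 and SCG3 differ widely between the 2 pools of each group.

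The other granins were at low levels and varied between the pools of each group. Chromogranin B (CHGB), the companion of chromogranin A in endocrine granules, was at 6.43 and 2.73 CPM in the Short pools, 1.25 and 4.86 CPM in the Long pools and 14.4 and 6.25 CPM in the THX pools. Secretogranin II (SCG2), the precursor of secretoneurin, was at 8.56 and 2.05, 0.963 and 7.60, and 15.6 and 5.29 CPM in the same order. Secretogranin III (SCG3), which tethers other granins to the granule membrane, was at 1.40 and 0.677, 0.178 and 1.05, and 4.44 and 1.16 CPM. In all 3 genes THX pool 1 was the highest pool and Long pool 1 the lowest.

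These 3 granins moved with the pituitary level, a mean of hormone genes that did not all rank the pools alike. In Long pool 2, CGA, TSHB, LHB and FSHB lay 0.69 to 3.17 above their log2 means over the pools. POMC, GH and PRL lay below theirs there, at −1.73, −1.45 and −0.93. SCG2 put the 6 pools in the same order as that level, and CHGB and SCG3 did so except that THX pool 2 stood above Long pool 2. The ratio of the highest to the lowest pool was 11.5 for CHGB, 16.2 for SCG2 and 24.9 for SCG3. Per 100 counts of CGA, SCG2 held between 17.2 and 76.9 counts and CHGB between 11 and 102 counts in the 6 pools. The log2 range over the pools was wider in these 3 than in 99.2% to 99.6% of tested genes, whose median range was 0.50.

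Group differences of the 3 granins had wide errors. In THX relative to Long pools the log2 differences were 1.76 (SE 0.701) for CHGB, 1.28 (SE 0.995) for SCG2 and 2.18 (SE 0.883) for SCG3, opposite in sign to CHGA. In THX relative to Short pools they were 1.16 (adjusted p = 0.345), 0.95 (adjusted p = 0.587) and 1.40 (adjusted p = 0.349), none past the threshold of 0.05 by edgeR. The 95% interval for CHGB ran from −0.46 to 2.77, and that for SCG2 from −1.36 to 3.27. The part of pituitary RNA in these differences was not tested on its own, and the values with the pituitary level in the fit are given further on.

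VGF and PCSK1 shared a different pattern over the pools. VGF, a granin-like precursor induced by nerve growth factor, had 14 and 11 counts in Short, 11 and 163 counts in Long and 98 and 28 counts in THX pools. That is 0.166 and 0.219, 0.196 and 3.00, and 1.72 and 0.422 CPM. Long pool 2 and THX pool 1 were high and the other 4 pools were low, Short pool 1 among them. PCSK1, the PC1/3 convertase, had 29 and 3, 3 and 71, and 65 and 17 counts, with the same 2 pools at the top, at 1.31 CPM in Long pool 2 and 1.14 CPM in THX pool 1.

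The thyrotropin subunit TSHB, a hormone gene of the anterior pituitary and of its pars tuberalis, the part that wraps the pituitary stalk, was high in the same 2 pools. TSHB had 24 and 30 counts in Short, 15 and 863 counts in Long and 934 and 128 counts in THX pools. Short pool 1 had 2320 counts of CGA, close to the 2398 of Long pool 2, but held 1.03 counts of TSHB per 100 of CGA, against 13.3 to 47.3 in the other 5 pools. VGF stood at 0.603 counts per 100 of CGA in Short pool 1 and at 4.96 to 9.73 in the other 5. For PCSK1 the ratio was 1.25 in Short pool 1, 2.96 in Long pool 2, 3.29 in THX pool 1 and 3.10 in THX pool 2, and the remaining 2 pools had 3 counts each. In Long relative to Short pools the log2 difference of VGF was 3.06 (SE 1.23, adjusted p = 0.353 by edgeR) and that of PCSK1 1.64 (SE 1.32, adjusted p = 0.578), neither past the threshold. Without Long pool 2 that of VGF was 0.06 and that of PCSK1 −1.96.

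**Figure D2:**
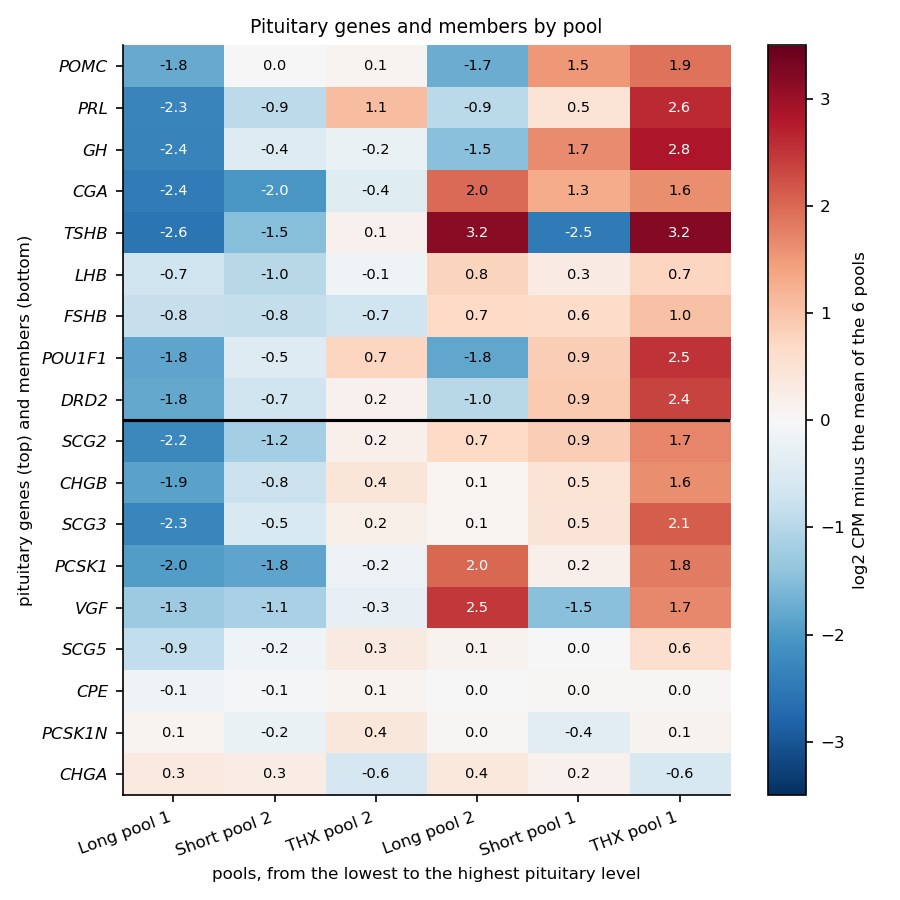
Log2 CPM minus the mean of the 6 pools (colour and printed values) for 9 pituitary genes, above the line, and the 9 measured granin and processing genes, below it, with the pools ordered by the mean level of 7 hormone genes. SCG2, CHGB and SCG3 go from their lowest value in Long pool 1 to their highest in THX pool 1, VGF and PCSK1 are high in the pools where TSHB is high, and CHGA is low in both THX pools.

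SCG5, PCSK1N and CPE stood at 51.0 CPM or more in every pool. SCG5, the chaperone of PC2, was at 93.7 and 83.5 CPM in the Short pools, 51.0 and 101 CPM in the Long pools and 139 and 115 CPM in the THX pools. The THX pools lay above the other 4, and Long pool 1, with the lowest pituitary level, lay below all others. The log2 difference was 0.74 (SE 0.284) in THX relative to Long pools and 0.52 (95% interval −0.15 to 1.19, adjusted p = 0.315 by edgeR) in THX relative to Short pools. On leaving out 1 pool the difference relative to Long pools lay between 0.32 and 1.31, with both ends set by the Long pools. The range of SCG5 over the 6 pools was wider than that of 89.5% of tested genes, and that of PCSK1N wider than 69.7%.

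PCSK1N, which encodes the inhibitor proSAAS, was at 145 and 160 CPM in the Short pools, 200 and 195 CPM in the Long pools and 204 and 247 CPM in the THX pools. The Short pools were the lowest, and no pool of one group overlapped those of another. Its means were 153 ± 10.6, 197 ± 3.89 and 225 ± 30.2 CPM. The log2 difference was 0.56 in THX relative to Short pools (SE 0.106, 95% interval 0.31 to 0.81) and missed the threshold (adjusted p = 0.0659 by edgeR). It passed with DESeq2, without the filter on low counts, with a pool number term and with the pituitary level as a covariate. Those fits called 8.97%, 3.82%, 2.18% and 2.89% of the genes they tested in THX against Short pools, against 0.916% in the fit above. Over fits with both pools of each group compared, the adjusted p ran from 0.000139 (DESeq2) to 0.154 (edgeR on the 4 pools compared). On leaving out 1 pool the difference lay between 0.42 and 0.70. In Long relative to Short pools the difference was 0.37 (95% interval 0.12 to 0.62, adjusted p = 0.342), and in THX relative to Long pools 0.19 (SE 0.106). PCSK1N did not move with the pituitary level, since Short pool 1 had its lowest value and the second highest pituitary level.

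Carboxypeptidase E (CPE) varied least, from 876 CPM in Long pool 1 to 1028 CPM in THX pool 2. It stood at 991 and 911 CPM in the Short pools and 876 and 960 CPM in the Long pools, which overlapped. The THX pools, at 992 and 1028 CPM, lay just above them. The log2 difference between THX and Short pools was 0.09 (95% interval −0.12 to 0.29) and that between Long and Short pools −0.05 (95% interval −0.25 to 0.15). Only 14.9% of tested genes had a smaller range over the 6 pools.

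**Figure D3:**
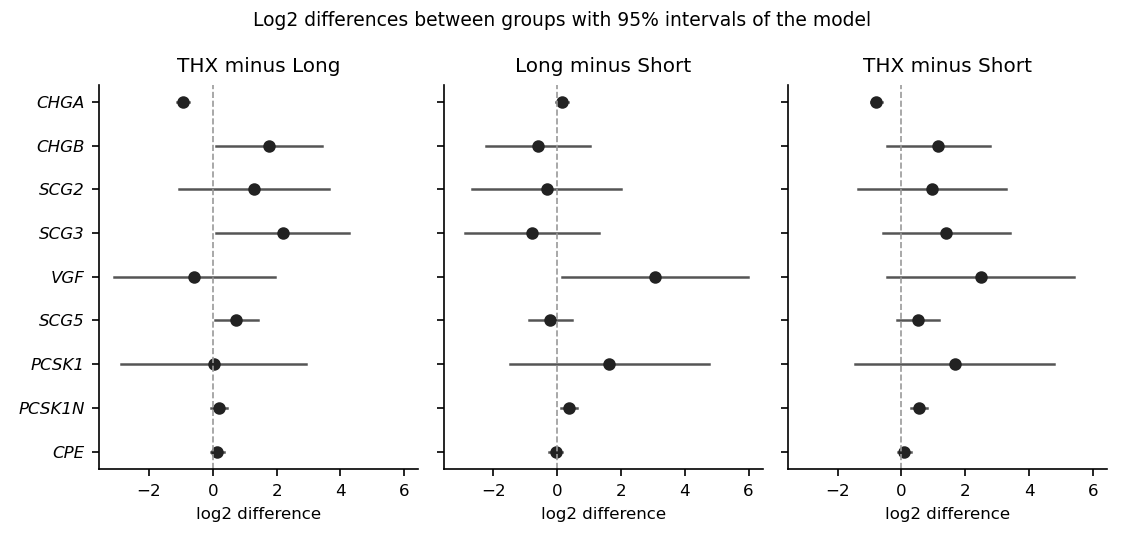
Log2 differences (points) with 95% intervals (lines) of the quasi-likelihood model for the 9 genes in the 3 comparisons, with 0 as a dashed line. The interval of CHGA lies below 0 in THX minus Short, that of PCSK1N lies above 0 in both comparisons with Short pools, and those of SCG2 and PCSK1 span 0 in all 3. The intervals of THX minus Long are drawn as a description and not as a test, because CHGA in that comparison led to the choice of the family.

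In THX against Short pools 1 of the 9 genes, CHGA, was called, in the downward direction, where 0.916% of all tested genes were called in either direction and 0.599% downward. The other 8 had differences above 0, with a median of 0.95 over the 9 against −0.01 over all tested genes. Of these 8, SCG2 was at −0.0194 without THX pool 1, when the median was 0.24, and CPE at −0.0123 with library totals. With the pituitary level as a covariate SCG2 (−0.27) and PCSK1 (−0.0721) were also below 0 and the median was 0.05. Pools of the groups did not overlap for 5 of 9 genes (CHGA, SCG5, PCSK1N, CPE and VGF), as for 52.5% of all genes. In THX against Long pools 1 of 9 was called beside 0.283% of all genes, and 6 of 9 did not overlap beside 37.2% of all genes, with a median of 0.19 beside 0.00. Those counts are a description from which nothing is read, because the called gene is CHGA, whose value in that comparison led to the choice of the family. The count called in THX against Short pools rests on CHGA in the same THX pools, so nothing is read from it either. The comparisons share pools, so their values are not independent of each other.

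Between day lengths none of the 9 was called by edgeR, as was 0% of all tested genes. PCSK1N and VGF had an unadjusted p below 0.05, that is 2 of 9, where 13.8% of all genes did. DESeq2 and limma-voom called 0 of the 9 as well, beside 0.76% and 0% of all genes. The pools did not overlap for CHGA and PCSK1N, 2 of 9, against 53.5% of all genes.

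Fits that took the pituitary level into account were added after the data were seen. That level was uneven across the groups, with its highest value in THX pool 1 (5.17) and its lowest in Long pool 1 (1.33). Whether thyroidectomy or day length alters the hormone genes themselves was not tested. A difference that shrinks with this covariate therefore cannot be read as pituitary RNA being removed. With that level as a covariate, the log2 difference of CHGA was −0.93 in THX relative to Long and −0.78 in THX relative to Short pools (adjusted p = 0.0314 by edgeR), the same to 2 decimals as without it. The difference of SCG2 went from 1.28 to −0.23 relative to Long pools and from 0.95 to −0.27 relative to Short pools. Those of CHGB went from 1.76 to 0.61 and from 1.16 to 0.25, and those of SCG3 from 2.18 to 0.63 and from 1.40 to 0.05. Those of SCG5 went from 0.74 to 0.34 and from 0.52 to 0.19, and that of VGF relative to Short pools from 2.48 to 0.80. That of PCSK1N became 0.65 relative to Short pools (adjusted p = 0.0386), and those of VGF and PCSK1 relative to Long pools became −2.15 and −1.99. This fit leaves 2 residual degrees of freedom.

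With the pool of lower pituitary level in each group alone (Short pool 2, Long pool 1 and THX pool 2), CHGA differed by −0.92 between THX and Long and by −0.85 between THX and Short. These are single pools with no test. The difference of SCG2 was then 2.42 between THX and Long, and Long pool 1 was also the lowest of the 3 in pituitary level.

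**Figure D4:**
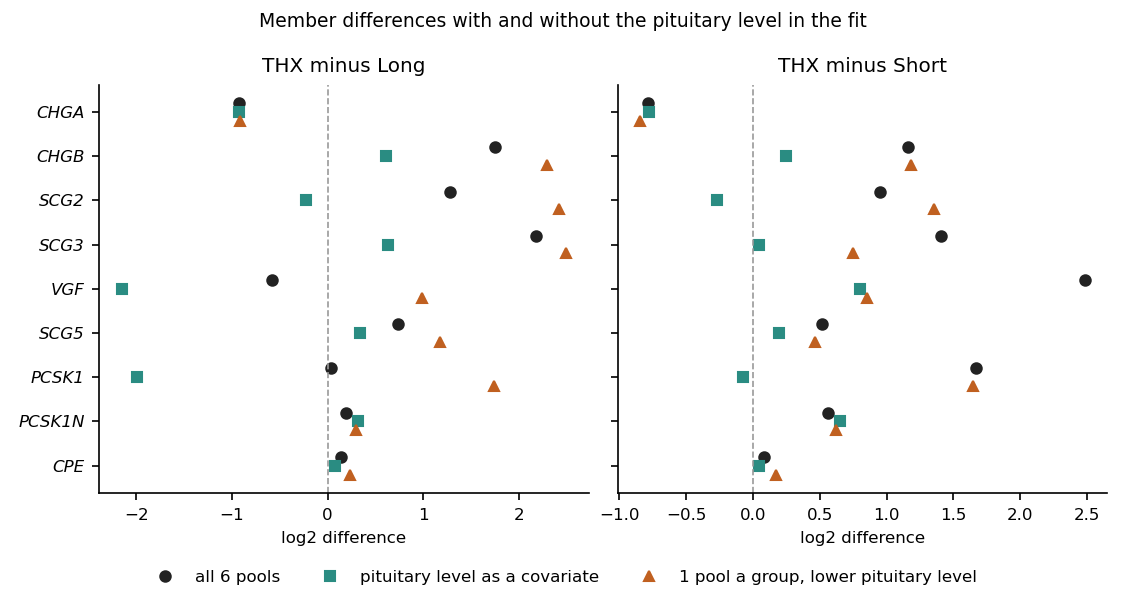
Log2 differences (horizontal axes) of the 9 genes between THX and Long pools and between THX and Short pools, from all 6 pools (circles), with the pituitary level as a covariate (squares) and from the pool of lower pituitary level in each group alone (triangles). The 3 points of CHGA, of PCSK1N and of CPE lie close together, while SCG2, CHGB and SCG3 move toward or past 0 with the covariate. The triangles of SCG2, CHGB and SCG3 lie above 0 in both comparisons.

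Other enzymes that mature secreted proteins were taken from a list of 20 genes, of which 18 were tested. Carboxypeptidase M, a membrane enzyme that trims basic residues from peptides outside the cell, fell in THX pools. It stood at 32.8 and 30.03 CPM in the Short pools, 25.0 and 26.9 CPM in the Long pools and 11.9 and 11.2 CPM in the THX pools (log2 difference −1.17 relative to Long, adjusted p = 0.0154, and −1.44 relative to Short pools, adjusted p = 0.00553, by edgeR). CPXM2, a relative of the carboxypeptidases, was at 637 and 641, 717 and 681, and 911 and 984 CPM, and rose relative to Short pools (log2 difference 0.57, adjusted p = 0.033). The other 16 did not pass in any comparison. Of all tested genes 0.283% passed relative to Long and 0.916% relative to Short pools. In THX relative to Short pools the log2 difference was 0.32 for the aminopeptidase cathepsin CTSH (adjusted p = 0.0935) and 0.64 for the glutaminyl cyclase QPCT (adjusted p = 0.0945).

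Named outside the rule and after their values were seen, the convertases FURIN and PCSK6 and the amidating enzyme PAM did not pass. FURIN lay between 70.9 and 76.9 CPM in all 6 pools. PCSK6 was at 227 and 199, 193 and 226, and 355 and 270 CPM in Short, Long and THX pools (log2 difference 0.55 relative to Short, adjusted p = 0.116). PAM was at 231 and 208, 212 and 257, and 168 and 183 CPM (log2 difference −0.32, adjusted p = 0.166).

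Of 33 genes of the granule machinery 29 were tested and none passed in any comparison. Of all tested genes 0.283% passed in THX against Long, 0% in Long against Short and 0.916% in THX against Short pools, so none passing is near that share. The median log2 difference of the 29 was 0.04 in THX relative to Short pools (19 above and 10 below 0). NUCB1, a calcium-binding Golgi protein, and CADPS2, a priming factor for dense-core granules, differed there by 0.30 (adjusted p = 0.116) and −0.26 (adjusted p = 0.12) on the log2 scale. The granule membrane protein PTPRN and the exocytosis factor BAIAP3, also named after their values were seen, were highest in THX pool 1 (6.09 and 12.5 CPM) and lowest in Long pool 1 (0.803 and 2.48 CPM), as were CHGB, SCG2 and SCG3. Of the 11 tested regulators of granule genes none passed either, and REST, the repressor that keeps granins silent in many non-neuronal cells, lay between 16.7 and 23.3 CPM.

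A list of peptide and growth factor precursors had 29 tested genes, 1 of which, CALCRL, encodes a receptor and not a precursor. In each comparison with THX pools 1 of the 29 passed, where 0.283% of all genes did relative to Long and 0.916% relative to Short pools. This was NPPC, the precursor of C-type natriuretic peptide, at 5.62 and 7.65 CPM in the Short pools, 6.62 and 6.46 CPM in the Long pools and 1.21 and 1.76 CPM in the THX pools (log2 difference −2.15 relative to Short pools, adjusted p = 0.0244 by edgeR). Neuromedin B (NMB) was at 0.319 and 0.219, 0.464 and 0.478, and 1.06 and 1.10 CPM, and missed the threshold (log2 difference 1.97, adjusted p = 0.0573). The opioid precursor PENK had 24 and 15 counts in Short, 19 and 7 counts in Long and 4 and 5 counts in THX pools and did not pass (log2 difference −1.96 relative to Short pools, adjusted p = 0.149). Apelin (APLN) differed by 0.44 there (adjusted p = 0.156). The median of the list was 0.00 in THX relative to Short pools, against −0.01 over all genes.

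Genes whose levels over the 6 pools were most like those of CHGA were sought among 9993 other genes with a symbol and a mean of at least 10 CPM. Likeness was the root mean square distance of log2 CPM after each gene was centred on its mean. The 5 nearest were ACY1 at 0.0844, FLYWCH2 at 0.0847, OLFML1 at 0.0931, ASB11 at 0.0991 and C1QTNF1 at 0.0996, where the median distance was 0.426. ACY1, an aminoacylase that frees acetylated amino acids, stood at 40.6 and 42.0 CPM in the Short pools, 50.2 and 50.6 CPM in the Long pools and 25.2 and 27.9 CPM in the THX pools. Since these genes were sought for their likeness, their lower THX levels are no further result. The same search for SCG5 gave COL22A1, ADRA2A and TMEFF1, at distances of 0.211, 0.217 and 0.219.

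**Figure D5:**
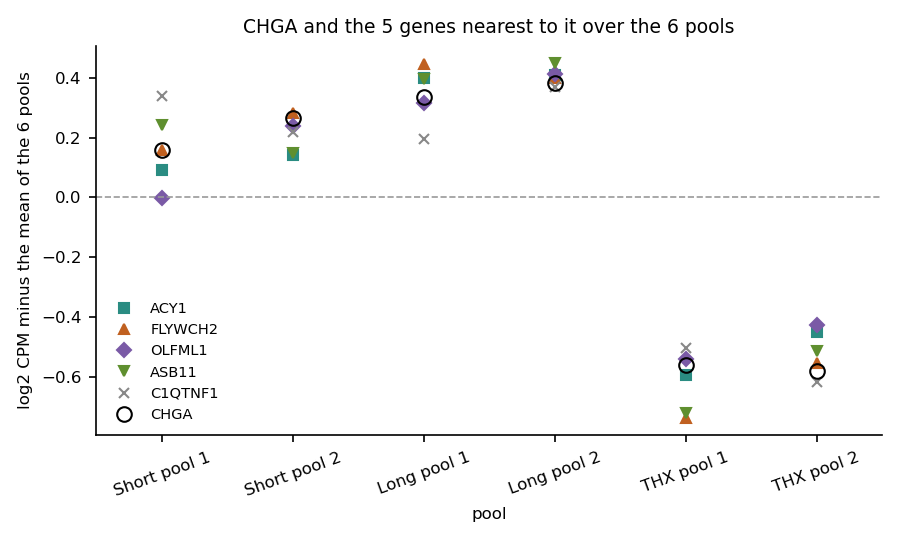
Log2 CPM minus the mean of the 6 pools for CHGA (open circles) and the 5 genes nearest to it, by pool. All 6 genes are lower in both THX pools than in each of the 4 control pools.

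Markers of other granule-bearing cells were read beside these results. Of 9 mast cell genes with a row 7 were under 1 CPM in all pools, and the summed level of the 9 was 53.1 to 59.7 CPM in Short, 38.2 to 42.4 CPM in Long and 12.8 to 16.4 CPM in THX pools. Nearly all of that was KIT, which fell in THX pools as CHGA was lower there, and its part in the result for CHGA was not tested. Of 23 neuron genes 13 were under 1 CPM in all pools and none passed, while SNAP25, a membrane fusion protein, lay between 282 and 324 CPM. Of 16 hypothalamic peptide genes 15 were under 1 CPM, among them SST and CARTPT with 0 counts in every pool, and PMCH was at 1.25 to 5.70 CPM. Of 17 pineal and photoreceptor genes 11 were under 1 CPM, and none passed. At most 0.916% of all tested genes passed in any comparison, so none passing in the neuron and pineal lists is near that share. Of 21 tested epithelial markers 3 fell in THX relative to Short pools (KL, HTR2C and CAB39L), where 0.916% of all genes were called, and 15 lay below 0 with a median of −0.24. Their summed level, in which TTR is the largest term, was 101859 and 106569 CPM in Short and 131716 and 153044 CPM in THX pools. The part of these cells in the result for CHGA was not tested.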

How the data were processed

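PolyA RNA of 6 pools, 2 each from the Short, Long and THX groups, was sequenced after stranded library preparation, per the labels' protocols. The submitters' processing notes name TopHat2 2.1.1, SAMtools 1.9 and featureCounts 2.0.0. Each deposited value is a whole-number count of reads of 1 gene, not normalised by the authors. No source used here gives the genome build, annotation or strand setting, so no positions or sequences are shown and overlapping genes are uncertain. Symbols come from the table, and from the RefSeq sheep assembly ARS-UI_Ramb where the table gives none (28100 identifiers matched).

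In R 4.3.3, edgeR 4.0.16 was run on all 6 pools with its expression filter, TMM factors and a quasi-likelihood model of 1 mean per group (3 residual and a median of 3.96 prior degrees of freedom). Two-sided p-values were adjusted by Benjamini-Hochberg over 18019 genes, with a threshold of 0.05. The SE is the log2 difference divided by the root of F, and intervals are 95%. CPM in the pituitary level and in likeness are log2 values with a prior count of 2. Alternatives used DESeq2 1.42.0 and limma 3.58.1 (voom), other scalings and filters, the pools compared alone, a pool number term and the omission of each pool. The fit was also tested on simulated data. Pools of a group differed by 28.3, 15.8 and 70.1 times the variance of counting in Short, Long and THX, which is more than counting alone gives. Nothing says whether pools differ in sampling day. Members and lists were chosen with earlier results of these data known. The genes named are all 9 members, called genes of each list with up to 4 of lowest p in THX against Short pools, abundant or absent markers, and the nearest genes by likeness. Figures used Python 3.11.15 and matplotlib 3.10.9.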

Additional observations from a re-analysis of the deposited data

How the results depend on the processing

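As a description, the number of the 9 genes called in THX against Long pools was 1 (CHGA, which chose the family), beside 0.283% of all genes. With the pituitary level as a covariate it was 0, beside 0.128%. The call of CHGA there did not hold on leaving out either Long pool. In THX against Short pools the number was 1 (CHGA), beside 0.916% of all genes, and 0 in the fit of the 4 pools compared, beside 0.0612%. The call of CHGA in that comparison did not hold on leaving out either Short pool or either Long pool. A fit without 1 pool leaves a single pool in a group, so no numbers called are given for such fits. In THX against Short pools the number changed in other fits too. It was 2 (CHGA and PCSK1N) with DESeq2 (8.97% of all genes called), without the expression filter (3.82%), at an adjusted p under 0.1 (5.12%) and with the pituitary level as a covariate (2.89%). In Long against Short pools the number was 0 in every fit that kept both pools of the groups compared. On leaving out 1 pool, CHGA lay between −0.95 and −0.91 in THX against Long and between −0.84 and −0.73 in THX against Short pools. The direction of CHGA and PCSK1N held in all 3 comparisons and all alternatives.

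No label pairs the pools by number. Pool 1 minus pool 2 correlated across genes at −0.06 (Short and Long), 0.21 (Short and THX) and 0.07 (Long and THX). These values cannot tell whether the pools were paired in sampling or processing. With the pool number as a replicate block, THX against Long pools had 1 called, Long against Short 0 and THX against Short 2. Of all genes this fit called 0.266%, 0% and 2.18%. PCSK1 reversed to −0.15 in THX against Long pools. Other log2 differences that changed sign, none of them called, were VGF in THX against Long pools with limma-voom (0.10), CPE in THX against Short pools with library totals (−0.0123), SCG2 (−0.23) and PCSK1 (−1.99) in THX against Long and SCG2 (−0.27) and PCSK1 (−0.0721) in THX against Short pools with the pituitary covariate. With the pool of lower pituitary level of each group alone, VGF was at 0.99 in THX against Long and −0.14 in Long against Short pools, where PCSK1 was at −0.10. On leaving out 1 pool, the Long against Short differences ran from −2.47 to 1.06 for SCG2, −1.88 to 0.16 for CHGB, −0.11 to 0.0135 for CPE, −0.79 to 0.19 for SCG5 and −1.96 to 3.46 for PCSK1. Those of THX against Long ran from −1.40 to 3.65 for PCSK1 and −1.92 to 2.43 for VGF, and that of THX against Short from −0.0194 to 2.34 for SCG2. The cause of these changes was not tested. Over all genes DESeq2 called 448, 137 and 1617 in THX against Long, Long against Short and THX against Short pools, against 51, 0 and 165 by edgeR. VGF and PCSK1 have under 30 counts in 4 pools each, which limits their precision.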
